A study of Mus musculus with 6 samples.

Results

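The genes described here are 10 genes of the circadian clock, Per1, Per2, Per3, Dbp, Tef, Nr1d1, Nr1d2, Arntl, Clock and Cry2, measured in mouse lumbar spinal cord. Members were all probe sets whose only annotated gene symbol was one of these names. They numbered 25 probe sets, with 18 of 22626 on array type A, covering all 10 genes, and 7 of 22511 on array type B, covering Per2, Per3, Arntl and Clock. The groups were 2 RNA pools labelled Egr3-deficient, called pool 1 (RNA 450) and pool 2 (RNA 500), and 1 wild-type pool (RNA 499). Each pool held total RNA of 3 cords, segments L3 to L5, taken at postnatal day 27, and was hybridised once to each array type. The labels of pool 2 and of the wild-type pool carry an acclimatization remark that pool 1 lacks. Egr3 encodes an immediate early transcription factor. The labels name no Egr3 allele, strain or sex and no time of day of collection, and pooling hides the spread between animals. The study's title names fusimotor neurons, the motor neurons of muscle spindles, but the RNA came from whole cord segments.

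The circadian clock is a feedback loop of transcription that runs in most cells, glia and neurons of the cord included. CLOCK and ARNTL (also called BMAL1) bind E-box sequences and switch on the Period and Cryptochrome genes, whose proteins then repress CLOCK and ARNTL. In a further loop the nuclear receptors NR1D1 and NR1D2 (REV-ERB alpha and beta) repress Arntl through ROR elements, at which the ROR receptors activate. DBP and TEF carry the rhythm to output genes through D-box sequences. Levels of most of these transcripts change with the time of day, Clock itself little in many tissues.

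The promoter windows of some members show these elements and are given here because the results compare genes of the loops that act through them. Each window runs from 250 bases before to 50 bases after a listed transcript start (RefSeq, assembly GRCm38.p6). The table held 14 windows for 9 of the members. No window was found for Per2. Capitals mark matches on either strand to the E-box CACGTG, the D-box forms TTATGTAA and TTATGCAA, and the ROR element AGTAGGTNA. Offsets count from the listed start. The Arntl window holds ROR element letters at offsets -8 and 28, the Per1 window an E-box at -166 and a D-box at -24, and the Per3 window D-boxes at -205 and -158. The Nr1d2 window holds none of these letters.
Arntl, chr7:113207261-113207560, plus strand: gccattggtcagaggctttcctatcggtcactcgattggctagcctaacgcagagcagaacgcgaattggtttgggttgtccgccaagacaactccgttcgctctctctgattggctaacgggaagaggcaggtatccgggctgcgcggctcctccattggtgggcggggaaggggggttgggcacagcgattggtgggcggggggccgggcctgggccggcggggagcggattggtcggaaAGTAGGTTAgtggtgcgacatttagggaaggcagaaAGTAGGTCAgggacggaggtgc
Per1, chr11:69098699-69098998, plus strand: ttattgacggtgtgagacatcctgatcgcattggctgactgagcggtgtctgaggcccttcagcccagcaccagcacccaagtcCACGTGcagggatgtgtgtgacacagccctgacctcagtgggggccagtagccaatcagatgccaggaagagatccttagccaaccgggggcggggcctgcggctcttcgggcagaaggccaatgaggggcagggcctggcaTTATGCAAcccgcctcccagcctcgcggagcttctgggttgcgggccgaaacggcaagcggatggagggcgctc
Per3, chr4:151044616-151044915, minus strand: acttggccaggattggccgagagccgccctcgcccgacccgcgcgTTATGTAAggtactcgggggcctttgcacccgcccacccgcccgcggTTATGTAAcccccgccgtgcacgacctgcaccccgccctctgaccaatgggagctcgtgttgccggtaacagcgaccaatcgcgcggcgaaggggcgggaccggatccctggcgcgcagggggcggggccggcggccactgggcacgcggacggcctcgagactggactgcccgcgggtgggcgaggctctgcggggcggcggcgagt
Nr1d2, chr14:18239057-18239356, minus strand: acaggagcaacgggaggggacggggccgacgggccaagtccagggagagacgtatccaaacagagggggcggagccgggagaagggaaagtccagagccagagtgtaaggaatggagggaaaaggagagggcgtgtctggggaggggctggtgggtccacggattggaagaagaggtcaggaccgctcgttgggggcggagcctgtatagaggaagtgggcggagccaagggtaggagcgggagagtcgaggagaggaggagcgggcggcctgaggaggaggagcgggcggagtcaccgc

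Of all 32851 promoter windows, 7.15% held the E-box, 0.938% and 0.743% the 2 D-box forms in the order given, and 0.591% the ROR element. Among the members the E-box was found in Per1 and Tef, the D-box in Per3 and Per1, and the ROR element in both overlapping windows of Arntl. The cAMP response element TGACGTCA was in 1.79% of all windows and in none of the 14. The letters of the ROR element were settled after the Arntl window had been read, over 2 earlier forms, so its match there is no independent evidence. Such matches are letters in a window and do not show binding.

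Egr3 itself did not check the labels. Its probe set on array type A read 24.9 in pool 1 and 52.7 in pool 2, against 40.6 in wild type, and on array type B 210 and 107 against 75.3 in the same order. Neither was lower in both Egr3-deficient pools, and whether either probe set covers deleted sequence is unknown here, so groups are called by their labels. The median deposited intensity per array was 50.3 to 60.1 on array type A and 76.2 to 91.8 on array type B. Markers of neurons were measured, with all 13 probe sets of that list above the filter on array type A, and so were 5 of 5 probe sets of Hox genes, which mark position along the cord.

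No clock gene passed the test on either array type. Differences are on the log2(intensity + 16) scale, Egr3-deficient minus wild type, and understate changes of dim probe sets. The filter on low values (mean at the 40th percentile or above) left 14 member probe sets on array type A, all genes but Per2, and all 7 on array type B. By limma, 0 of 14 and 0 of 7 had an adjusted p under 0.05, where 0.0663% of the probe sets tested on A passed, all as higher, and 1.63% on B, made up of 1.02% higher and 0.607% lower. At an unadjusted p under 0.05 there were 3 of 14 members on A, beside 20.7% of all probe sets, and 2 of 7 on B, beside 14.2%. The probe sets that passed on A were all of skeletal muscle genes. With 2 pools against 1 a missed threshold does not show that levels were alike.

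The members did not move one way. On array type A, 7 of 14 were below wild type in both Egr3-deficient pools, beside 34.8% of all tested probe sets, and 3 were above it in both, beside 47.9%. On array type B, 4 of 7 were below in both pools, beside 36.6%, and 2 above in both, beside 38.9%. The member median was -0.06 on A, where all tested probe sets had 0.11, and -0.60 on B, where all had a median of 6.3e-05. Both pools are set against the same wild-type pool, so their sides are not independent. On A Nr1d2 and Clock lay lowest and Arntl and Per1 highest. On B Per3 1458176_at and both Clock probe sets lay lowest, and Per2 and Per3 1442243_at highest.

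**Figure D1:**
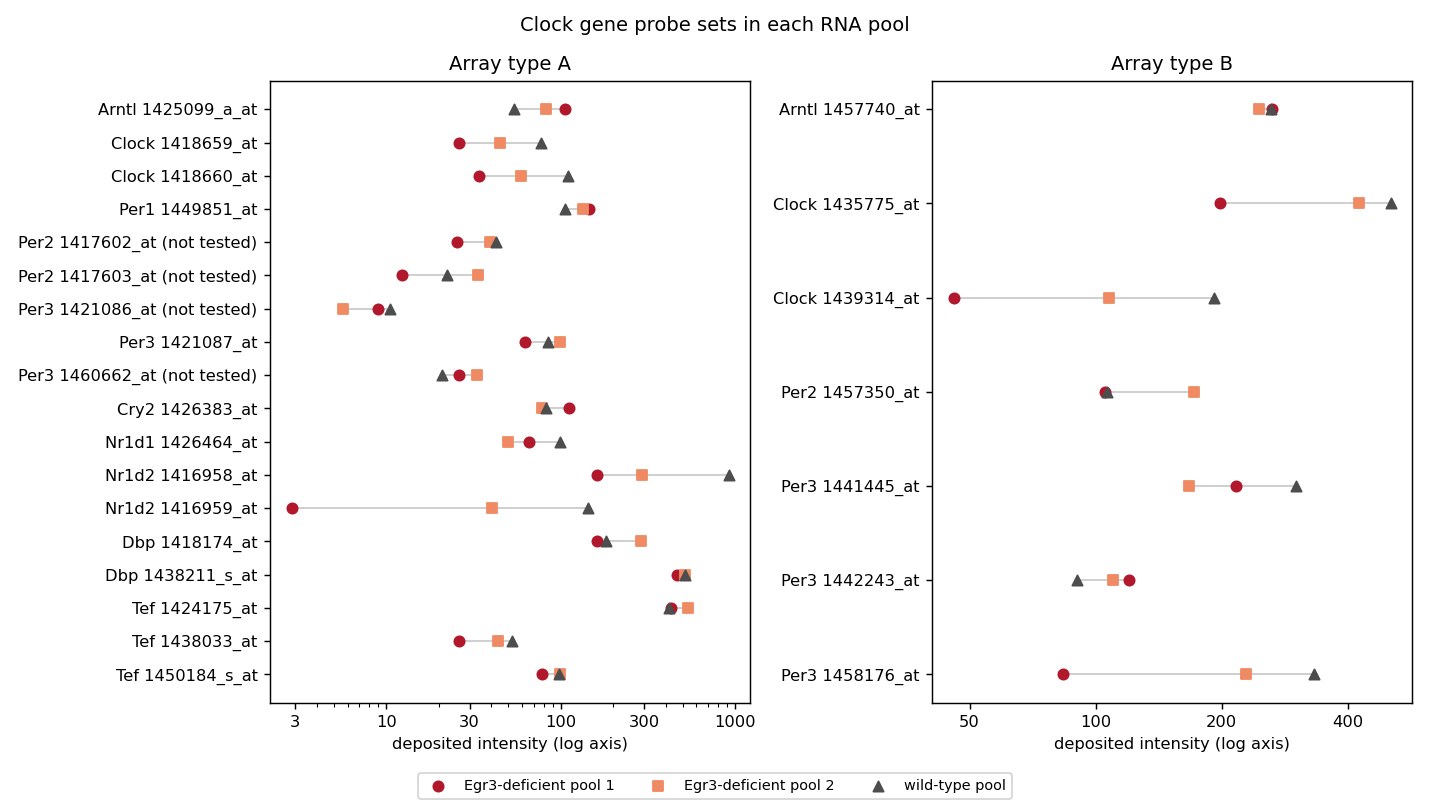
Deposited intensity (log axis) of the 25 clock gene probe sets, with a point for each Egr3-deficient pool and for the wild-type pool; probe sets marked as not tested were under the filter. For all Clock and Nr1d2 probe sets pool 1 reads lowest, pool 2 lies between and wild type reads highest. The array medians have this order too, and the share of all probe sets with it was not counted. The 3 points of Dbp 1438211_s_at nearly coincide.

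Nr1d2, the gene of the repressor REV-ERB beta, had the greatest differences among the members, with values in both Egr3-deficient pools far under wild type on its 2 probe sets, both on array type A. Probe set 1416958_at read 161 in pool 1 and 293 in pool 2, against 916 in wild type, that is 0.176 and 0.320 of it. Probe set 1416959_at read 2.88 in pool 1 and 40.6 in pool 2, against 143 in wild type. Both pools were thus lower than wild type on either probe set, with pool 1 the lowest. The log2 difference of 1416958_at was -2.04 (SE 0.37, limma adjusted p = 0.158). Probe set 1416959_at is less firm, since pool 1 lay far under the filter intensity of 36.7 and pool 2 just above it, so that it was kept through its wild-type value. Its log2 difference was -2.24 (SE 0.58, adjusted p = 0.161), but -1.27 with a pseudocount of 64 and -1.49 without pool 1, and it did not pass the filter at the 60th percentile or when the pseudocount was 1. No other tested member differed by 2-fold or more in both pools alike. On A 4.35% of all tested probe sets did so downward and 1.2% upward, and on B 1.8% downward and 4.27% upward. Of all tested probe sets 0.317% had a lower difference than 1416958_at. Both passed under median centring (adjusted p = 0.00112 and 3.2e-06), a setting that also called 597 of all probe sets lower where quantile normalization called 0.

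Nr1d1, the gene of REV-ERB alpha, had a single probe set, on array type A. It read 66.1 in pool 1 and 49.6 in pool 2, against 98.4 in wild type. Both Egr3-deficient pools were lower, here with pool 2 the lowest. Its log2 difference was -0.55 (SE 0.36, limma adjusted p = 0.396). The difference of Nr1d2 from Nr1d1 was not tested, and a level of one probe set is not set against that of another.

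Clock encodes the DNA-binding partner of ARNTL, and all 4 of its probe sets were under wild type in both Egr3-deficient pools. On array type A probe set 1418659_at read 26.2 and 44.9 in pools 1 and 2, against 77.5 in wild type. Probe set 1418660_at read 34.2 and 59.5 in these pools, against 109.8 in wild type. On array type B probe set 1435775_at read 197.5 and 424 in pools 1 and 2, against 506 in wild type. In each the order was the same, pool 1 lowest and wild type highest. The remaining probe set, 1439314_at on B, read 45.9 and 107.6 in pools 1 and 2, against 191.8 in wild type. Pool 1 lay under the filter intensity on both probe sets of A (36.7) and on 1439314_at of B (55.9). Only 1435775_at passed the filter at the 60th percentile. Log2 differences were -0.78 and -0.93 on A (SE 0.35 for each) and -0.82 and -1.12 on B (SE 0.45 and 0.54). The limma adjusted p ranged over 0.252, 0.209, 0.426 and 0.333 in that order, so the lower readings are a shared direction of 4 probe sets on the same 3 pools and not a call. The probe sets share a gene and the same RNA and are not replicates.

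Some measures of RNA quality and cell content also differed between the Egr3-deficient pools and wild type, and others did not or differed by array type. For the 18S ribosomal RNA control, the 3' probe set over the 5' one gave a ratio on A of 2.27 in pool 1 and 1.08 in pool 2, against 0.0493 in wild type. On B the 18S ratio was 1.43 and 0.945 in pools 1 and 2, against 0.0605 in wild type. For actin the same ratio on A was 1.37 and 1.48 in these pools, against 1.36 in wild type. On B the actin ratio was 1.40 and 1.47, against 1.52 in wild type. For Gapdh it was 0.858 and 0.975 on A, against 0.734 in wild type, and on B 0.923 and 0.805, against 0.755. Neuron markers on A were below wild type in both pools for 9 of 13 probe sets and above in both for 3. Their summed intensity was 16416 in pool 1 and 17636 in pool 2, against 21494 in wild type. Astrocyte markers were below in both pools for 11 of 20 and above in both for 5, with a sum of 21182 and 20276, against 23791 in wild type. Those above included Gfap 1426508_at, at 2843 in pool 1 and 2442 in pool 2, against 1907 in wild type. Of all tested probe sets on A, 34.8% were below in both pools and 47.9% above. Oligodendrocyte markers summed to 72520 in pool 1 and 92120 in pool 2, against 108222 in wild type, in deposited intensity. Most of these sums was Mbp. After normalization their median log2 difference was 0 in pool 1 and -0.11 in pool 2, so the order of the sums did not hold. Of 19 probe sets 8 were below in both pools and 5 above. On B the neuron sum ran the other way, at 23009 in pool 1 and 24204 in pool 2, against 21605 in wild type, while 5 of 8 probe sets were below in both pools. Astrocyte markers on B were below in both pools for 5 of 6 tested probe sets, beside 36.6% of all tested there. By limma 2 were called lower, beside 0.607% of all. They were Aqp4 1447745_at, a water channel, at 356 in pool 1 and 434 in pool 2, against 1239 in wild type (log2 difference -1.84, adjusted p = 0.0115), and Slc1a2 1438194_at, a glutamate transporter, at 3513 and 7489, against 7384 (log2 difference -1.18 after normalization, adjusted p = 0.0403). Of 4 oligodendrocyte probe sets on B, 1 was at least 2-fold above wild type in both pools. Another 2 were called lower, both of the myelin gene Ermn. Ermn 1436578_at read 842 in pool 1 and 1445 in pool 2, against 2908 in wild type (log2 difference -1.75, adjusted p = 0.00760), and 1440902_at read 999 and 2573, against 3872 (log2 difference -1.72, adjusted p = 0.00988). Aqp4 and both Ermn probe sets had the order of pools seen for Clock and Nr1d2, which is also that of the array medians. They were chosen after their values were seen, as the calls of these lists. Summed over all their probe sets on B, astrocyte markers had 12243 in pool 1 and 13039 in pool 2, against 12910 in wild type, and oligodendrocyte markers 15597 and 12929, against 13352. Microglia markers on A summed to 3697 and 3141 in pools 1 and 2, against 2687 in wild type. In bulk RNA fewer cells of a type and less RNA per cell cannot be told apart. The part of any of these in the Nr1d2 and Clock readings was not tested.

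Arntl, the partner of Clock, lay in the other direction on array type A and near wild type on B. Probe set 1425099_a_at on A read 106.4 in pool 1 and 81.8 in pool 2, against 54.0 in wild type. Both Egr3-deficient pools were higher, at a log2 difference of 0.75 (SE 0.35, limma adjusted p = 0.266), and 91.9% of all tested probe sets had a lower one. Probe set 1457740_at on B read 263 in pool 1 and 245 in pool 2, against 262 in wild type. There the pools lay on either side of wild type and the log2 difference was -0.01 (SE 0.45, adjusted p = 0.999). The probe sets thus gave different pictures of the same gene, and the transcripts each detects are unknown here.

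**Figure D2:**
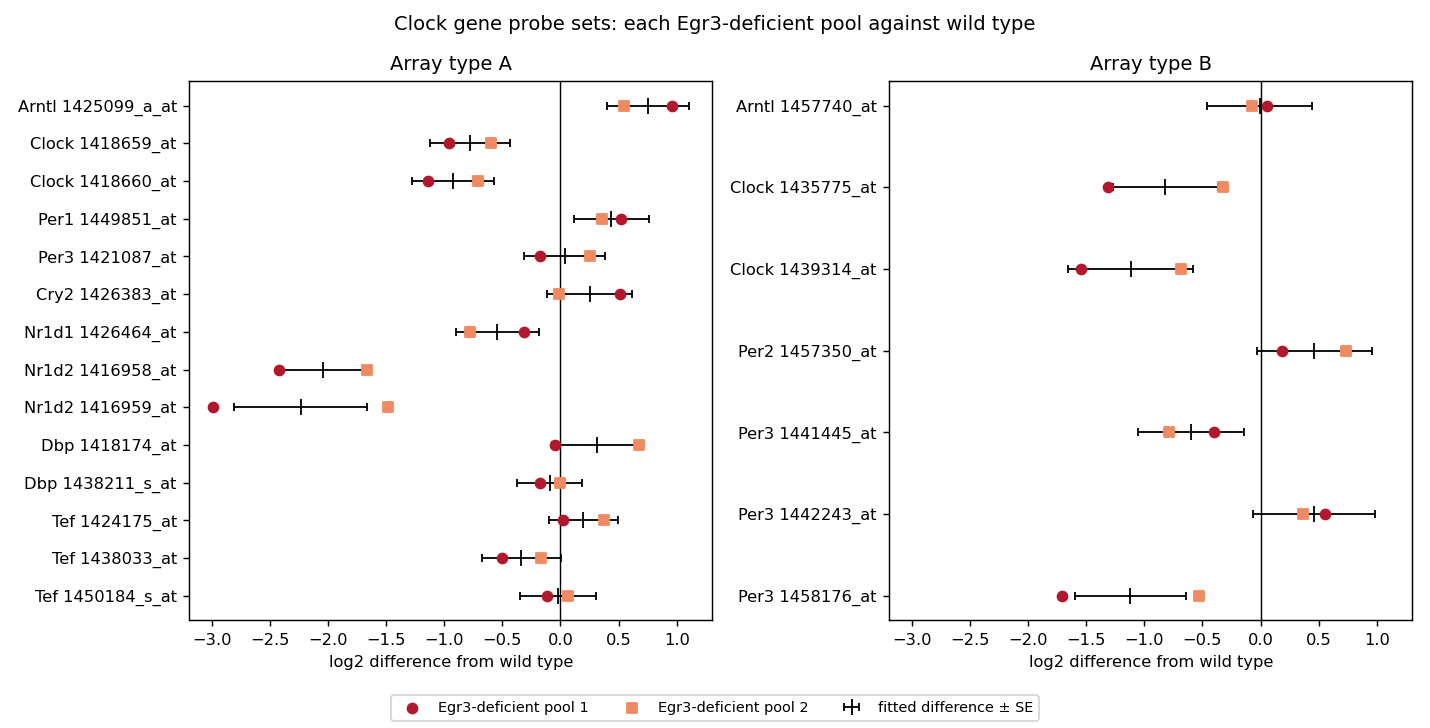
Log2 difference from wild type of each Egr3-deficient pool (points) for the 21 tested clock gene probe sets, with the fitted difference and its SE (bar); the vertical line marks wild type. Nr1d2 and Clock lie left of the line in both pools, Arntl 1425099_a_at and Per1 lie right of it, Nr1d1 lies left of it and Per2 right of it, and the probe sets of Per3, Dbp and Tef differ among themselves.

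Of the Period genes, which encode the repressors of the main loop, Per1 was above wild type in both Egr3-deficient pools. Its probe set on array type A read 145.1 in pool 1 and 134.3 in pool 2, against 106.1 in wild type. On A 47.9% of all tested probe sets were likewise above wild type in both pools. The log2 difference of Per1 was 0.44 (SE 0.32, limma adjusted p = 0.453). Per1 is also known to be switched on by glucocorticoids and by neuronal activity. Per2, a second target of both signals, had its tested probe set on B, where 1457350_at read 105.2 in pool 1 and 171.9 in pool 2, against 106.6 in wild type. Pool 1 was thus level with wild type before normalization and pool 2 above it, and the log2 difference came to 0.46 (SE 0.49, limma adjusted p = 0.748). The other Per2 probe sets, on A, were under the filter. There 1417602_at read 25.4 and 39 in pools 1 and 2, against 42.7 in wild type, and 1417603_at read 12.2 and 33.6, against 22.4 in wild type. Such readings around the filter intensity of 36.7 give no direction.

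Per3 had 6 probe sets, and they disagreed. On array type A 1421087_at read 62.6 in pool 1 and 98.7 in pool 2, against 84.7 in wild type, so the pools lay on either side (log2 difference 0.03, SE 0.35). On B 1458176_at read 83.6 and 228.7 in pools 1 and 2, against 332 in wild type. Another, 1441445_at, read 216.6 and 166.8 in these pools, against 301 in wild type. A further one, 1442243_at, read 120.1 and 110, against 90.1 in wild type. The first of these 3 on B had a log2 difference of -1.12 (SE 0.48, limma adjusted p = 0.251), the next -0.60 (SE 0.45, adjusted p = 0.614) and the last 0.46 (SE 0.53, adjusted p = 0.773). Below the filter on A, 1421086_at read 8.98 and 5.64 in pools 1 and 2, against 10.5 in wild type, and 1460662_at read 26.05 and 33.1, against 20.9. No common direction of Per3 can be read from these probe sets.

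Cry2, a Cryptochrome gene whose protein represses CLOCK and ARNTL together with the Period proteins, read 112.1 in pool 1 and 78.5 in pool 2, against 82.6 in wild type, on array type A. Pool 1 alone was higher, and the log2 difference was 0.25 (SE 0.36, limma adjusted p = 0.707). Cry1, its paralog outside the members, also had pools on either side of wild type, at 82.6 and 33.1 in pools 1 and 2, against 60.2 in wild type (log2 difference -0.03, adjusted p = 0.972).

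The output genes Dbp and Tef, PAR bZIP activators that bind the D-box, had no probe set outside wild type by much more than its SE. Dbp 1438211_s_at read 464 in pool 1 and 515 in pool 2, against 518 in wild type, which gave a log2 difference of -0.09 (SE 0.28, limma adjusted p = 0.870). Dbp 1418174_at read 162.3 and 289 in these pools, against 181.7 in wild type (log2 difference 0.31, SE 0.39). The probe sets of Dbp thus agree on pool 1 being close to wild type and not on pool 2. Tef 1424175_at read 429 in pool 1 and 539 in pool 2, against 418 in wild type (log2 difference 0.20, SE 0.30). Tef 1438033_at read 26.2 and 43.7 in pools 1 and 2, against 52.8 in wild type (log2 difference -0.34, SE 0.34). Tef 1450184_s_at read 78.1 and 98.7 in these pools, against 97.2 in wild type (log2 difference -0.02, SE 0.33). The suffix of the last and of Dbp 1438211_s_at marks probe sets that may detect related transcripts.

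**Figure D3:**
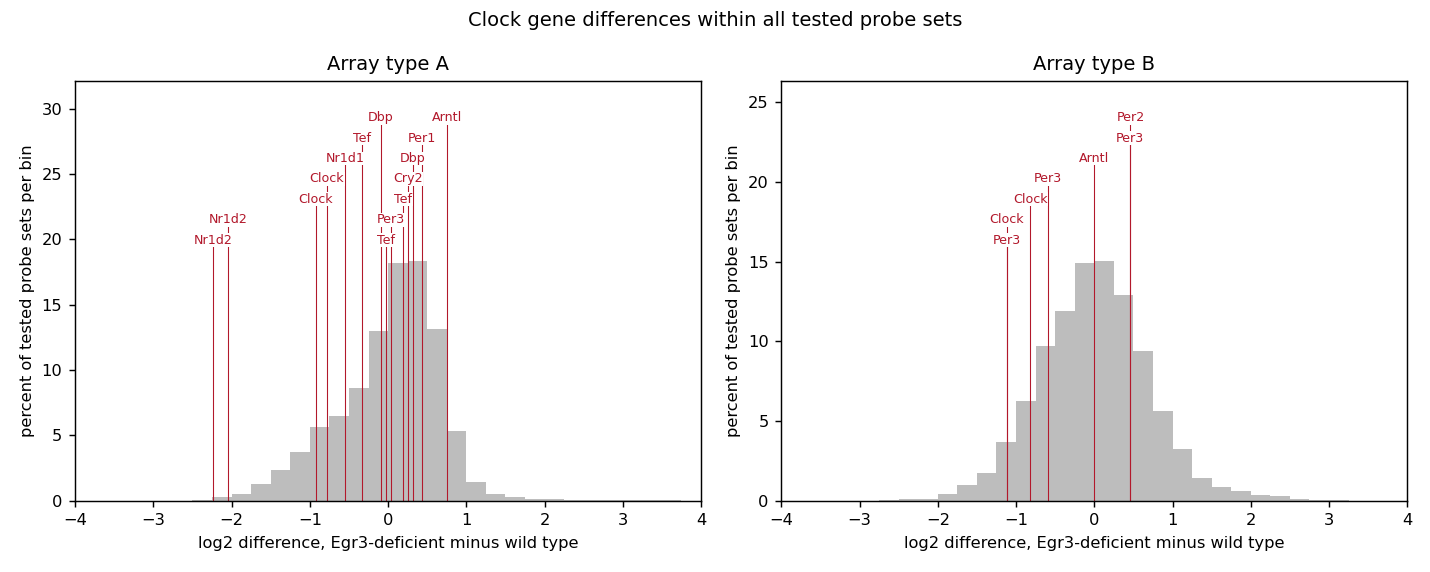
Share of all tested probe sets (grey bars, bins of 0.25 on the log2 scale) by log2 difference, Egr3-deficient minus wild type, with a line at each tested clock gene probe set. Nr1d2 lies in the thin left tail on array type A, and most other members lie within the bulk of all probe sets.

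Other genes of the clock, 39 in 3 lists, were read the same way. On array type A 49 probe sets were tested, 0 passed in either direction by limma (7 at an unadjusted p under 0.05), 22 were below wild type in both Egr3-deficient pools and 16 above, and their median was -0.06. On B 27 were tested, and 1 passed as lower and 0 as higher. Below in both pools were 18, beside 36.6% of all, and above 1, beside 38.9%. Their median was -0.49. The lower side on B came from probe sets of loop genes, 6 of 9 below in both pools, and of turnover and kinase genes, 11 of 15. Of all tested probe sets there 36.6% were. The 6 were 4 of Rora and 2 of Rorb, and 5 of the 11 were of Gsk3b, so few genes made up these counts. The output genes on A were above in both pools for 11 of 21, near the 47.9% of all. The share of tested probe sets called lower on B was 0.607%.

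The 1 call was Rorb 1455799_at, of the nuclear receptor ROR beta, which fell on array type B. It read 83.6 in pool 1 and 148.5 in pool 2, against 420 in wild type, which gave a log2 difference of -1.76 (SE 0.46, limma adjusted p = 0.0350). That call ended under 7 of the 12 alternatives, 2 of which, single pools, gave no test, with adjusted p values between 0.0504 and 0.455 there. Rora, of ROR alpha, had 1424034_at on A at 32.6 in pool 1 and 52.0 in pool 2, against 132.7 in wild type (log2 difference -1.27, SE 0.34, adjusted p = 0.161). Pool 1 lay there under the filter intensity of 36.7. This Rora probe set passed under median centring alone of the alternatives (adjusted p = 0.0261). It was the other probe set of these lists named by rule, being over 2-fold lower in both pools. Taken over both genes and array types, 9 of 11 tested probe sets of Rora and Rorb were below wild type in both pools. They include the 6 counted above on B, and the share of all tested probe sets was 34.8% on A and 36.6% on B. ROR receptors act at the same ROR elements as NR1D1 and NR1D2, with opposite sign.

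Others were chosen after their values were seen. Nfil3, a repressor at D-boxes, read 56.7 in pool 1 and 47.5 in pool 2, against 31.2 in wild type (log2 difference 0.63, adjusted p = 0.324). Its wild-type value lay under the filter intensity of 36.7, so that it was kept through the Egr3-deficient pools. Ciart, a repressor of CLOCK and ARNTL, read 365 and 254 in pools 1 and 2, against 343 in wild type. Nampt, an NAD synthesis gene under clock control, read 357 and 658 in pools 1 and 2 on B, against 1037 in wild type (log2 difference -1.24, adjusted p = 0.123). Gsk3b, a kinase of clock proteins, was below wild type in both pools on 1 of 1 probe set on A and 5 of 5 on B, the latter already counted above. None of these passed. Usp2, a deubiquitinase with a rhythmic transcript, was above in both pools on its 2 probe sets, at 0.46 and 0.59, and did not pass either.

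**Figure D4:**
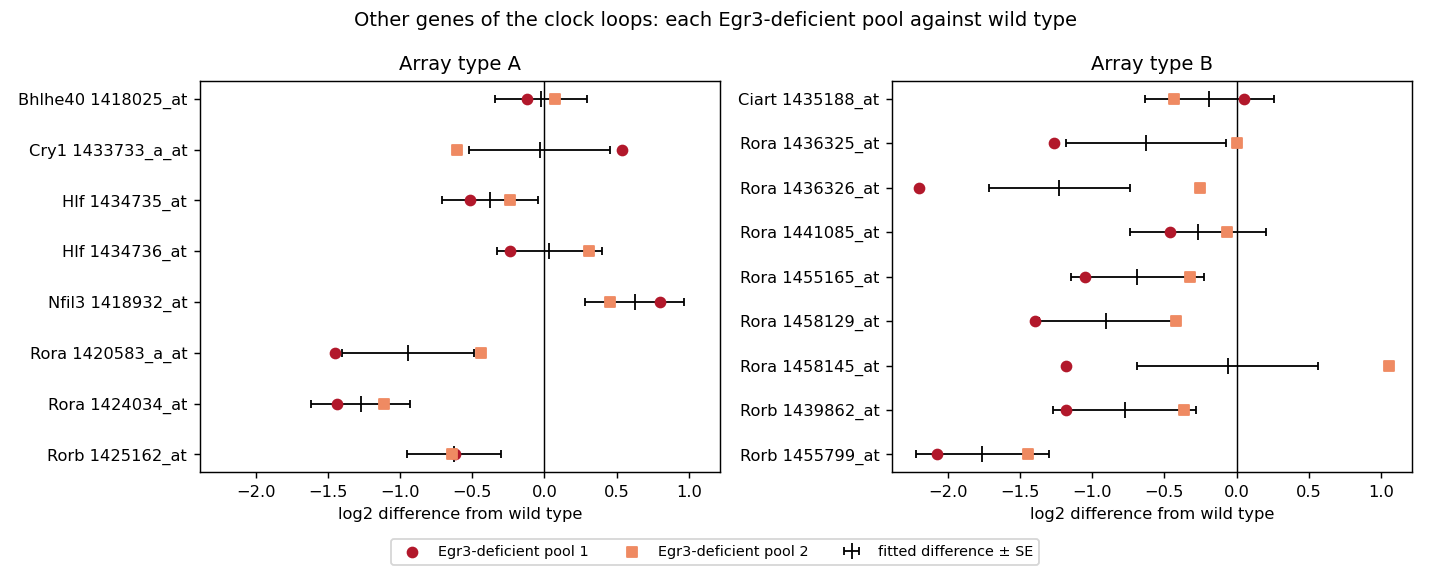
Log2 difference from wild type of each Egr3-deficient pool (points) for the tested probe sets of other clock loop genes, with the fitted difference and its SE (bar). Rorb 1455799_at and Rora 1424034_at lie left of wild type in both pools, Nfil3 lies right of it, and pool 1 lies further left than pool 2 for the Rora probe sets.

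Per1 and Per2 share known regulators with glucocorticoid-responsive and immediate early genes. On array type A, where 47.9% of all tested probe sets exceeded wild type in each pool and 20.7% had an unadjusted p under 0.05, 19 of 28 glucocorticoid list probe sets were above it in both pools, with a median of 0.36 and 0 calls by limma (9 at an unadjusted p under 0.05). Another 7 of the 28 were below it in both pools. On B 1 of 4 tested probe sets passed, beside 1.02% of all called higher there. It was Nfkbia 1438157_s_at, an inhibitor of NF-kappaB. This probe set read 2690 in pool 1 and 2674 in pool 2, against 771 in wild type (log2 difference 1.53, SE 0.35, limma adjusted p = 0.0138). The Nfkbia probe sets on A had log2 differences of 0.19 to 0.90, and none was called. Of the immediate early genes, 14 of 16 probe sets on A were above in both pools, with a median of 0.64 and 0 calls (6 at an unadjusted p under 0.05). Klf9, a target of glucocorticoids and of the clock, was below in both pools on its 3 tested probe sets, at -0.44 to -1.38, and none passed.

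Markers of other tissues also differed between the pools. Skeletal muscle markers on A summed to 6440 in pool 1 and 7867 in pool 2, against 1157 in wild type. Most of the wild-type sum was Pvalb 1417653_at, which read 1354 in pool 1 and 1487 in pool 2, against 848 in wild type. Of the tested muscle marker probe sets 16 of 16 were above in both pools, beside 47.9% of all, and 9 were called. These 9 were all the calls on A, 0.0663% of the probe sets tested there. In wild type 15 of 18 were under the filter intensity. Liver markers summed to 503 in pool 1 and 13581 in pool 2, against 236 in wild type. Choroid plexus markers summed to 544 and 4490 in these pools, against 279, and most of the pool 2 sum was Ttr. Ttr 1454608_x_at read 150 and 2408 in pools 1 and 2, against 24.0 in wild type. In the same order Folr1 read 39.4 and 44.5, against 37.3, and Aqp1 71.3 and 77.1, against 41.7. Sostdc1 1449340_at read 85.6 and 126.4, against 117.5, so the sum does not stand for the whole list. Muscle and liver are known to express Dbp, Tef, Nr1d1, Nr1d2 and the Period genes. The source of these marker transcripts and its part in the clock gene readings were not tested.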

How the data were processed

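Per the labels, 3 RNA pools were each hybridised to 2 array types, giving 6 arrays. For every probe set of an array the deposited value was a linear intensity, and arrays had a mean without 2% of each tail of 150.02 to 150.06. How probes were summarised is unknown here. A pseudocount of 16 was added to the intensities, log2 was taken, and the 3 arrays of a type were quantile normalized together, filtered at the 40th percentile of the mean (13576 probe sets on A, 13507 on B), and fitted with limma 3.58.1 in R 4.3.3 (lmFit, eBayes with trend), with Benjamini-Hochberg adjustment over all tested probe sets of the type and a threshold of 0.05. The 64 control probe sets of each type were left out. There was 1 residual degree of freedom, so the spread was that of the 2 Egr3-deficient pools joined with the prior (6.54 and 52.3 degrees of freedom). No spread of wild type was measured, and the test takes it as equal to theirs. All p-values rest on the spread between these pools and on the prior, which limma sets from all tested probe sets. The prior had more degrees of freedom than the pools on both array types, by far the most on B. Calls on B changed with it, with 0 under eBayes without trend, and 201 higher and 170 lower under robust eBayes. Precision is limited by how few arrays there were.

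Symbols came from the platform annotation, updated through the gene identifier with the RefSeq table of GRCm38.p6 (20351 probe sets on A, 14486 on B). A single symbol was given for 20380 and 14661 probe sets, several for 691 and 245, which were not named, and none for 1555 and 7605. All members were described. Of the other clock lists, probe sets past the threshold or over 2-fold in both pools were named, and of the remaining lists up to 4 each could be. Members and lists were chosen with earlier results of these data known. The fit was tested on simulated data. The 12 alternatives covered normalization, pseudocount, filter, variance prior, adjustment and each Egr3-deficient pool left out.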

Additional observations from a re-analysis of the deposited data

How the results depend on the processing

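No member passed the threshold under any alternative run, except that 2 lower calls on array type A, both Nr1d2, came under median centring. With pseudocounts of 1 and 64, no filter, eBayes without trend, robust eBayes and adjustment over both array types, the member counts above and below wild type moved by less than 1.5 times. On A, median centring gave 5 above in both pools, and the filter at the 60th percentile left 2 below and moved the median to 0.20, with fewer members tested. Median centring turned that median to 0.016. The medians of each pool alone were -0.0093 (without pool 1) and -0.18 (without pool 2) on A, and -0.32 and -0.40 on B. Counts on single pools ran from 4 to 6 above and 8 to 10 below on A, and 2 to 3 and 4 to 5 on B. On B the median was -0.45 under median centring and -0.50 with a pseudocount of 64, and 1 member was above in both pools without quantile normalization and when filtering at the 60th percentile. Scaling on the 100 probe sets shared by both array types, chosen after seeing the data, moved the median of all probe sets on B to -0.67, left 0 members above there and gave a member median of -1.20; Per2 1457350_at and Per3 1442243_at turned to -0.28 each, relative to that shift. Signs near 0 also turned for Per3 1421087_at (-0.085 without quantile normalization, -0.13 on shared scaling, 0.25 without pool 1 and -0.18 without pool 2), and under median centring for Dbp 1438211_s_at (0.039) and Arntl 1457740_at (0.13). Without pool 1 and without pool 2, in that order, Tef 1450184_s_at had 0.068 and -0.11, Cry2 -0.010 and 0.51, Dbp 1418174_at 0.68 and -0.049, and Arntl 1457740_at -0.071 and 0.057. In all, 8 of 23 named probe sets changed sign under at least 1 of the 12 alternatives; those of Nr1d2, Clock, Per1, Nr1d1, Rora and Rorb did not. Calls over all probe sets ranged from 0 to 227 higher and 0 to 597 lower on A (main setting 9 and 0) and 0 to 201 and 0 to 195 on B (138 and 82). Beyond median centring and no filter, adjustment over both types gave 17 and 9 on A. Apart from what the alternatives' construction shows, the cause of these shifts was not tested. Signal over background limits Per2 and Per3 on A, where 4 probe sets were under the filter.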
